A study of Mus musculus with 51 samples.

Results

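The 9 genes described here are those through which the liver senses, carries, stores and releases iron: Hamp and Hamp2, Trf, Tfr2, Tfrc, Hfe, Slc40a1, Fth1 and Cp. They were taken by name from a matrix of 33773 mouse gene symbols. Every one of the 9 had a row, with Tfr2 listed under its older name Trfr2, and all 9 passed the minimum on expression in hepatocytes and in liver. The study asked how adult hepatocytes fare without the FoxA proteins, forkhead transcription factors that open chromatin at liver genes.

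RNA was sequenced from hepatocytes of 4 groups of mice. FoxA triple null mice carried floxed FoxA1 and FoxA2 alleles (FoxA1 L/L, FoxA2 L/L) on a FoxA3-/- background. At 8 weeks of age they were given AAV8 (adeno-associated virus 8) with Cre recombinase under the Tbg promoter, which is active in hepatocytes, so that FoxA1 and FoxA2 were deleted in adult hepatocytes (n = 4). FoxA3 null mice had the same alleles and were given AAV with GFP, also at 8 weeks of age, so they lacked FoxA3 only (n = 4). FoxA1/A2 lox animals kept all 3 genes (n = 3), and FoxA1/A2 Cre alfp animals lost FoxA1 and FoxA2 through Cre under the Alfp promoter and kept FoxA3 (n = 4). RNA labelled as liver was sequenced from samples labelled HNF4a control (n = 2) and HNF4a null, after the nuclear receptor HNF4a (n = 4). Ages of the lox, Cre alfp and liver groups, and the time from injection to collection, are not given in the labels. Nothing states that replicates came from separate animals, so p-values measure only the spread between these samples, which may be technical.

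Hepcidin, the peptide made from Hamp, is the hormone that limits how much iron enters the blood. It is secreted by hepatocytes, binds the exporter ferroportin (Slc40a1) on macrophages, enterocytes and hepatocytes, and causes its breakdown. Hepatocytes raise hepcidin through BMP and SMAD signalling, sensed with the help of transferrin receptor 2 (Tfr2), HFE and hemojuvelin, and through interleukin 6 and STAT3 in inflammation. Mice carry a second gene, Hamp2, beside Hamp on chromosome 7, whose peptide is not known to act on iron in the same way.

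Because Hamp2 was called in hepatocytes without FoxA1 and FoxA2 and Hamp was not, the 250 bases before the start of each gene are shown (RefSeq, GRCm38.p6, minus strand, 5′ to 3′). Capitals mark the BMP-responsive core GGCGCC, or the bases of Hamp2 aligned with it, and the STAT site of the form TTCNNNGAA.
Hamp, chr7:30944030-30944279: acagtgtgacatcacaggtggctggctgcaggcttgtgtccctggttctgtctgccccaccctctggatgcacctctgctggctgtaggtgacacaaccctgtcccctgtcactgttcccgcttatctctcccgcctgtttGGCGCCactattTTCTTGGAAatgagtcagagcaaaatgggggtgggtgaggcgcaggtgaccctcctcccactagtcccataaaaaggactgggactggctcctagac
Hamp2, chr7:30924182-30924431: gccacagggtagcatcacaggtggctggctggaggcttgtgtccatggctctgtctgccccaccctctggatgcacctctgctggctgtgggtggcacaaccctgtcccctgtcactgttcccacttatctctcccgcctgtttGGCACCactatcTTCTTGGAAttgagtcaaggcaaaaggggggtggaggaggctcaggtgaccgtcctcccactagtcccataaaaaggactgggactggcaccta
The alignment of the 2 promoters had 253 columns, of which 227 were identical (89.7%), 20 were substituted and 6 were gaps. The STAT site had the same letters, TTCTTGGAA, in both, at -97 to -89 of Hamp and -94 to -86 of Hamp2. The BMP-responsive core stood at -109 to -104 of Hamp, and the aligned bases of Hamp2 were GGCACC, which is the substitution G4A counted from 1 at the core's 5′ end. Both motifs read the same on either strand. Of 32851 mouse promoters searched over the same length, 9.59% held GGCGCC and 7.02% held TTCNNNGAA. A forkhead core, TGTTTAC, and an HNF4a core, CAAAGTCCA, were searched on both strands and stood in 3.17% and 0.384% of promoters. Of the 9 genes 7 had a promoter entry. Neither of these last motifs was in any of their windows, and GGCGCC also stood at -89 to -84 of Tfrc.

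The labels were checked on the targeted genes in RPKM, reads scaled by gene length and sequencing depth. Foxa2 lay between 0.243 and 0.47 in triple null libraries and between 0.991 and 1.26 in Cre alfp, against 6.84 to 20.6 in the other 2 hepatocyte groups. Foxa1 was 3.04 to 3.63 in triple null libraries and 1.14 to 1.34 in Cre alfp, against 4.71 to 10.1. The triple null mean of Foxa1 was thus 38.6% of that in FoxA3 null, and the Cre alfp mean 18.4% of that in lox, so part of the transcript remained, more of it in the triple null. For triple null against FoxA3 null the authors' deposited table has Foxa1 at -0.60 and Foxa2 at -4.22 on the log2 scale. Foxa3 was at most 0.0114 in triple null libraries and FoxA3 null libraries and 19 to 34.5 in lox and Cre alfp. Hnf4a went against its label: it was 487 to 545 in the 4 libraries labelled HNF4a null and 118 to 126 in the 2 controls, and which part of the gene was deleted is not given in the labels. The liver groups are taken as labelled, and if the labels had been exchanged every liver difference given here would change sign. Relative depth ran from 1 to 1.1 in liver and from 2.01 to 4.06 in hepatocytes, where 1 is the shallowest library. The lox and Cre alfp libraries also differ from the FoxA3 null and triple null libraries in how the mice were made, so a comparison across that line cannot be told apart from that difference. In whole tissue or pooled cells, fewer cells of a type and less RNA per cell cannot be told apart.

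Loss of FoxA1 and FoxA2 went with a much higher Hamp2 level, with FoxA3 present and without it, while Hamp spread widely in every hepatocyte group. In the triple null, Trf and Cp were lower than in FoxA3 null hepatocytes. Log2 differences below are on the scale of log2(RPKM + 1), from limma, and calls needed an adjusted p (Benjamini-Hochberg, over all genes tested) under 0.05 and a difference of at least 1 either way. Some counts are also given at an unadjusted p under 0.05. The share of all genes at that threshold was not computed, so these counts only describe the genes counted. Between triple null and FoxA3 null, 1 of the 9 genes was called higher, where 4.17% of 11500 genes were, and 2 were called lower, where 3.95% were. Between Cre alfp and lox, 2 were called higher, where 1.29% of genes were, and 1 lower, where 1.1% were.

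**Figure D1:**
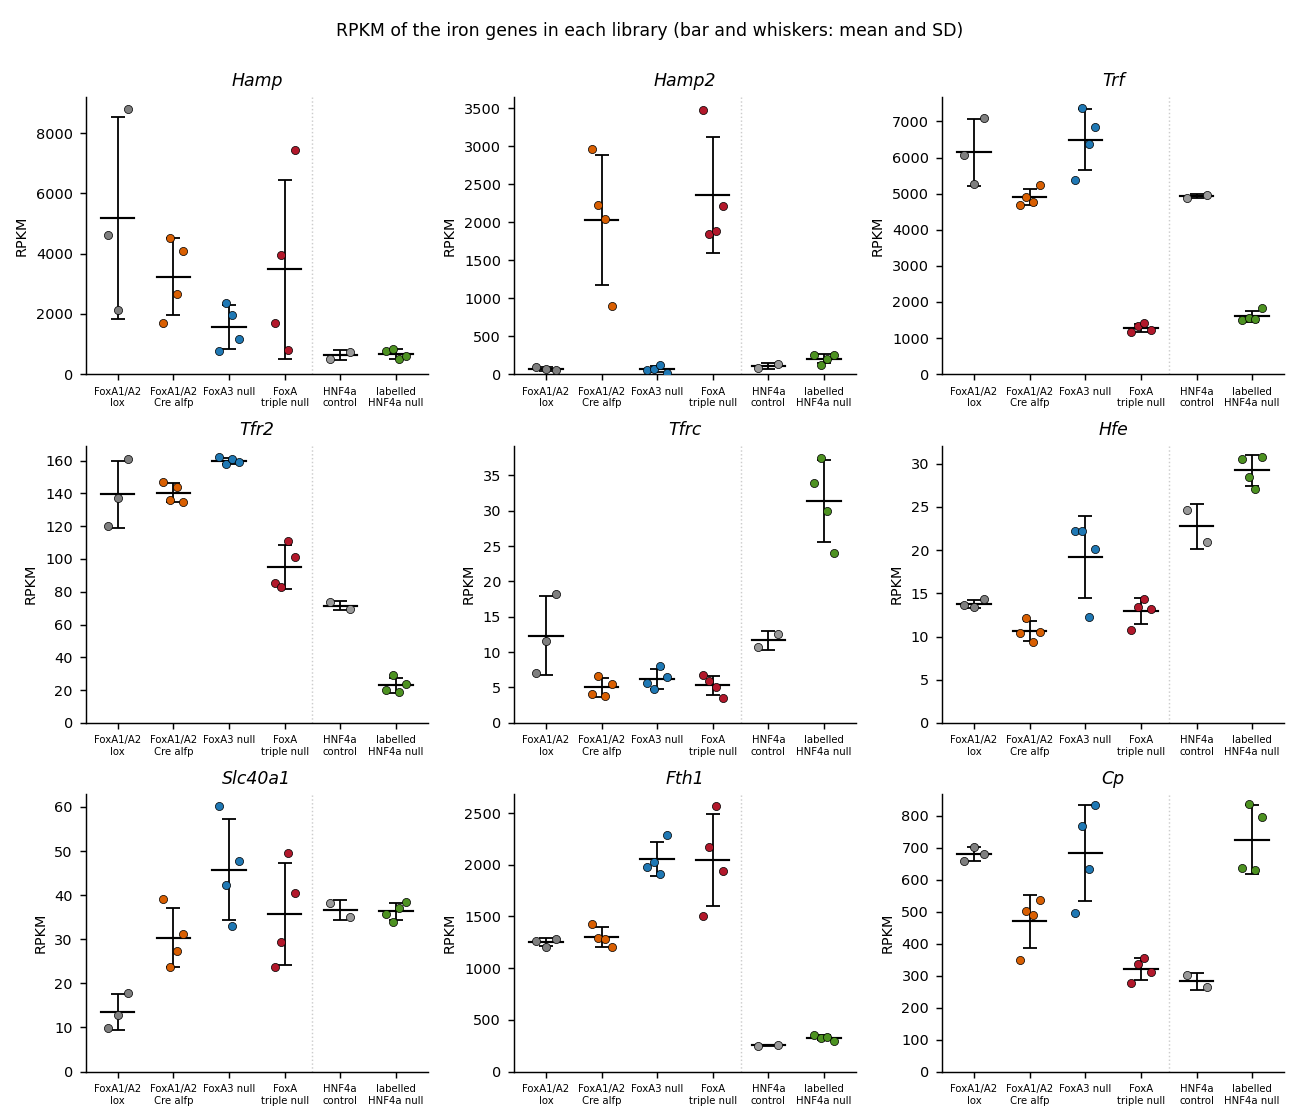
RPKM of the 9 iron genes (vertical axes, linear and from 0) in each of the 21 RNA libraries by group (horizontal axes). Points are libraries, long bars are group means and whiskers are 1 SD. Hamp2 stands between 897 and 3477 in the Cre alfp and triple null libraries and at most 255 in all others, and Trf between 1169 and 1404 in the triple null against at least 4699 in the other hepatocyte libraries.

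Hamp itself read 1703, 3968, 792 and 7441 RPKM in triple null replicates 1 to 4 and 775, 2358, 1971 and 1163 in FoxA3 null. It read 4614, 2134 and 8785 in lox and 1704, 4501, 2665 and 4085 in Cre alfp. The highest triple null library held 9.4 times the lowest, and the groups overlapped in each of these pairs. The mean was 3476 ± 2962 (SD, n = 4) in triple null libraries and 1567 ± 726 (n = 4) in FoxA3 null, a log2 difference of 0.81 (95% interval -0.53 to 2.15, limma adjusted p = 0.354). For Cre alfp against lox it was -0.55 (95% interval -2.0 to 0.90, adjusted p = 0.739). Neither difference was detectable at this spread. In order of mean level Hamp went from lox through triple null, Cre alfp and FoxA3 null to the livers labelled HNF4a null and the HNF4a controls, and the ranges of each neighbouring pair overlapped.

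Hamp2 read 3477, 1849, 1889 and 2209 RPKM in triple null libraries and 49.5, 73, 114 and 20.8 in FoxA3 null. In Cre alfp it read 2969.7, 2224, 2041 and 897, and in lox 97.8, 66.9 and 47.8. All 8 libraries labelled as deleted for FoxA1 and FoxA2 were far above the 7 labelled as undeleted. The triple null mean was 36.6 times that of FoxA3 null (log2 difference 5.36, SE 0.46, limma adjusted p = 9.97e-07), and the Cre alfp mean was 28.7 times that of lox (4.76, SE 0.50, adjusted p = 5.73e-05). The size of the rise did not differ detectably with FoxA3 status: the difference between the 2 effects was 0.60 (95% interval -0.85 to 2.05, adjusted p = 0.587).

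Hamp and Hamp2 are near copies, and how the authors divided reads that fit both is not given in the sources used here, so their split is uncertain and their sum is given beside it. In the triple null the sum was 5832 ± 2883 RPKM (n = 4), from 2681 to 9650.5, and in FoxA3 null 1631 ± 752 (n = 4), from 824 to 2431. Those 2 groups did not overlap. In Cre alfp it was 5272 ± 979 (n = 4) and in lox 5249 ± 3348 (n = 3), which overlapped. Hamp2 made up 22.9% to 70.5% of the sum in triple null libraries and 18% to 63.5% in Cre alfp, against 1.76% to 6% in FoxA3 null and 0.541% to 3.04% in lox. Within groups the share tended to be lower where Hamp was higher. From the lowest to the highest Hamp it was 70.5%, 67.1%, 31.8% and 22.9% in the triple null, 3.04%, 2.08% and 0.541% in lox, and 63.5%, 43.4%, 18% and 33.1% in Cre alfp. In FoxA3 null it was 6%, 1.76%, 5.46% and 3%, in no such order. Since the share is computed from Hamp itself, this order is a description of these libraries only.

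**Figure D2:**
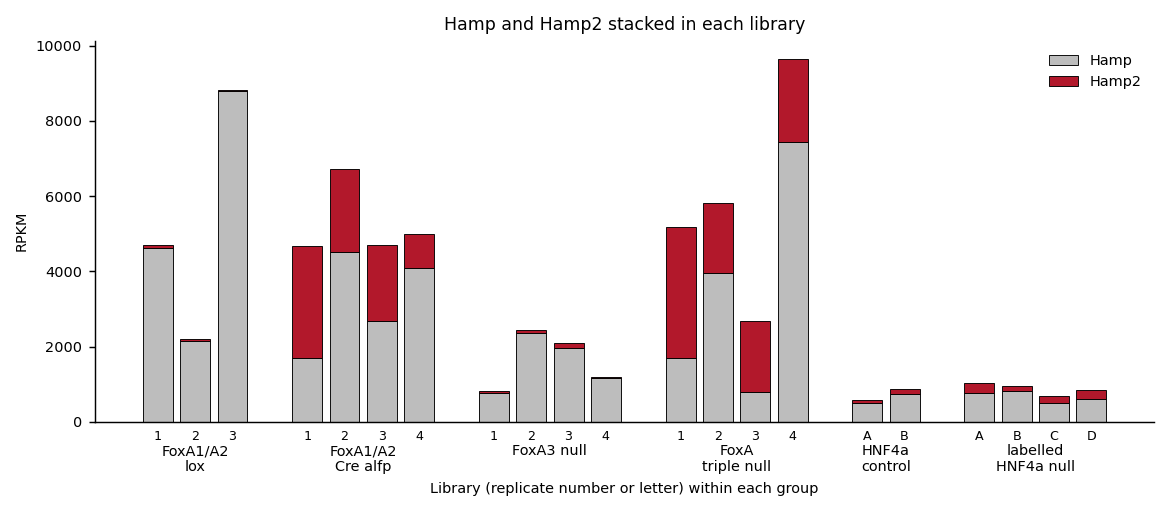
RPKM (vertical axis, linear) of Hamp in grey with Hamp2 in red on top, for each library (horizontal axis, by group, with replicate numbers, or letters for liver). The red part makes up 18% to 70.5% of the column in Cre alfp and triple null libraries and at most 6% in lox and FoxA3 null.

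Trf encodes transferrin, the plasma protein that carries iron, and it is made in bulk by hepatocytes. It read 1169, 1322, 1404 and 1221 RPKM in triple null libraries and 5368, 7371, 6387 and 6857 in FoxA3 null. It read 6059, 5269.5 and 7102 in lox and 4699, 4918, 4777 and 5228 in Cre alfp. The highest triple null library, at 1404, was far below the lowest of the other hepatocyte groups, at 4699. Against FoxA3 null Trf fell by 2.34 on the log2 scale (SE 0.12, limma adjusted p = 4.56e-09), to 19.7% of that level. Cre alfp lay below lox without overlap, but the difference of -0.32 (SE 0.13, adjusted p = 0.208) did not pass. The effect of deleting FoxA1 and FoxA2 was more negative without FoxA3, by -2.02 (SE 0.18, adjusted p = 5.75e-06). In this test of the difference between effects, 2 of the 9 genes were called lower and 0 higher, where 3.54% of genes were called lower and 3.28% higher. At an unadjusted p under 0.05, limma had 3 lower and 1 higher.

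Tfr2, the receptor by which hepatocytes read iron-laden transferrin, moved the same way by less. It read 85.5, 82.7, 111 and 101 RPKM in triple null libraries and 162, 158, 161 and 159 in FoxA3 null, with no overlap. It read 120.4, 137 and 161 in lox and 147, 136, 144 and 135 in Cre alfp, which overlapped. Triple null against FoxA3 null gave -0.75 (SE 0.11, limma adjusted p = 0.000175) and Cre alfp against lox 0.02 (SE 0.12, adjusted p = 0.961). The difference between these effects was -0.77 (SE 0.16, adjusted p = 0.00692). Tfr2 passed on adjusted p in the first and the last of these and stayed under the minimum size in both.

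Tfrc encodes transferrin receptor 1, which takes transferrin into cells and whose messenger RNA is stabilised when cellular iron is low. It was the least abundant of the 9 genes in every hepatocyte group, at 6.79, 5.86, 5.08 and 3.55 RPKM in triple null libraries and 5.68, 4.73, 8.01 and 6.52 in FoxA3 null, which overlapped (log2 difference -0.20, 95% interval -0.74 to 0.33, limma adjusted p = 0.577). It read 7.08, 11.6 and 18.2 in lox and 4.11, 6.66, 3.83 and 5.45 in Cre alfp. The Cre alfp libraries were all below lox, with a difference of -1.08 (SE 0.27, adjusted p = 0.032). This call did not survive leaving out lox replicate 2 (-1.07, adjusted p = 0.0924) or 3 (-0.77, 0.117), or Cre alfp replicate 1 (-1.01, 0.0948) or 3 (-0.98, 0.0878), nor a fit without the minimum on RPKM (adjusted p = 0.0786) or on these 2 groups alone (0.0954). It was also lost with a block on replicate numbers, which did not pair the libraries (-1.12, adjusted p = 0.191). The difference between the effects was 0.88 (SE 0.37, adjusted p = 0.123), and it was called only without lox replicate 1 (1.19, 0.0413).

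Hfe, a class I-like protein that partners the transferrin receptors, read 10.8, 13.4, 14.4 and 13.2 RPKM in triple null libraries and 22.2, 22.2, 12.3 and 20.1 in FoxA3 null. FoxA3 null replicate 3 lay within the triple null range. The difference was -0.51 (SE 0.16, limma adjusted p = 0.0277), under the minimum size. In lox it read 13.7, 13.4 and 14.3 and in Cre alfp 10.4, 12.2, 9.34 and 10.5. Cre alfp lay below lox without overlap, but the difference of -0.36 (SE 0.17, adjusted p = 0.296) did not pass.

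Slc40a1, the only known cellular iron exporter, was set apart by its low level in lox. It read 9.77, 12.8 and 17.9 RPKM in lox, 39.2, 23.7, 27.3 and 31.2 in Cre alfp, 60.3, 42.2, 33 and 47.7 in FoxA3 null and 23.7, 29.4, 49.6 and 40.4 in the triple null. The last 3 groups overlapped one another, and none overlapped lox. Cre alfp was 2.25 times lox (log2 difference 1.13, SE 0.27, limma adjusted p = 0.026), while triple null against FoxA3 null gave -0.37 (95% interval -0.90 to 0.16, adjusted p = 0.281). These 2 effects differed by -1.50 (SE 0.37, adjusted p = 0.0147). The Cre alfp call was lost without lox replicate 1 (0.93, adjusted p = 0.135) or 2 (1.11, 0.079) or Cre alfp replicate 1 (1.00, 0.0844), and in a fit without the minimum on RPKM (1.13, 0.0652). With a block on replicate numbers, which did not pair the libraries, it was lost too (1.11, adjusted p = 0.185). The call on the difference between effects was lost with that block as well (-1.48, 0.103). Kupffer cells, liver macrophages, also make ferroportin: in Cre alfp libraries the summed RPKM of their 10 markers was 25.7 to 78, against 8.17 to 46.7 for lox. It was 21.2 to 28.1 in FoxA3 null and 13.9 to 45.9 in the triple null. No marker was listed at 0 throughout a group, and limma called 0 of the 8 tested in either contrast (1 higher for Cre alfp against lox and 0 for triple null against FoxA3 null at an unadjusted p under 0.05), with a median difference of 0.67 for Cre alfp against lox and -0.07 for triple null against FoxA3 null. Their part in the Slc40a1 levels was not tested.

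Fth1, the ferritin heavy chain that oxidises and stores iron, was called in neither pair. It read 1503, 2172, 2565 and 1942 RPKM in triple null libraries and 1983, 2028, 1913 and 2291 in FoxA3 null (log2 difference -0.03, 95% interval -0.32 to 0.27, limma adjusted p = 0.898). It read 1431, 1296, 1284 and 1204 in Cre alfp and 1262, 1206 and 1283 in lox (0.06, 95% interval -0.26 to 0.38, adjusted p = 0.893). Both pairs overlapped. The FoxA3-deficient groups, at 2054 ± 165 and 2045 ± 444 (n = 4 each), stood above lox at 1250.0 ± 39.9 (n = 3) without overlap. Its partner Ftl1, the ferritin light chain, was singled out after its values were seen: Cre alfp replicate 1 read 13 RPKM, against 921 to 1621 in the other 3 Cre alfp libraries and at least 1932 in the other hepatocyte groups. Ftl1 has near-identical copies in the genome, so its count is uncertain, and it was called in no comparison.

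Cp encodes ceruloplasmin, the copper-bearing plasma ferroxidase that lets exported iron load onto transferrin. It read 276, 338, 355 and 313 RPKM in triple null libraries and 496, 768, 635 and 835 in FoxA3 null, with no overlap. It fell to 46.9% of the FoxA3 null level (log2 difference -1.07, SE 0.17, limma adjusted p = 0.000277). The difference went below the minimum size without triple null replicate 1 (-1.0, adjusted p = 0.00124) or FoxA3 null replicate 4 (-0.96, 0.00124), while its adjusted p still passed. Cp read 348, 503, 491 and 538 in Cre alfp and 659.8, 701 and 681 in lox. These did not overlap either, and the difference of -0.55 (SE 0.18, adjusted p = 0.0972) did not pass. The difference between the effects was -0.52 (SE 0.25, adjusted p = 0.174).

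**Figure D3:**
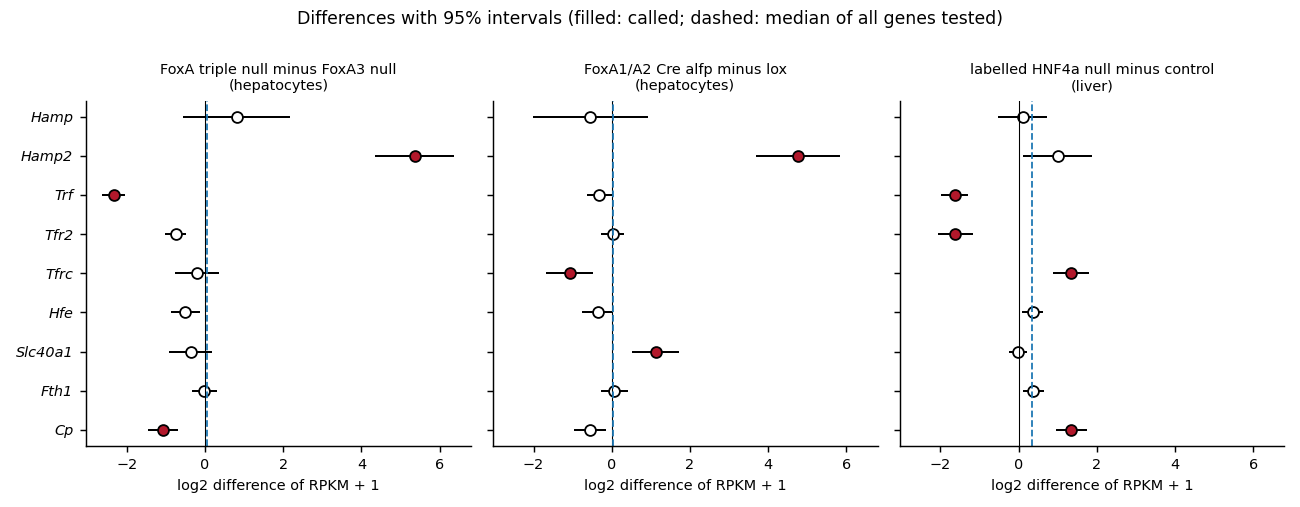
Log2 differences of RPKM + 1 (horizontal axes) for the 9 genes (vertical axis) in 3 comparisons, with 95% intervals as lines. Filled points were called, and the dashed line is the median of all genes tested. Hamp2 is far to the right in both hepatocyte panels, at 5.36 and 4.76, and Trf is at -2.34 and -1.63 in the outer panels and -0.32 in the middle one.

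Comparisons across the 2 pairs share their control libraries with those above, so values are given side by side. The median of all genes tested was 0.13 for triple null against lox, 0.13 for triple null against Cre alfp and 0.10 for FoxA3 null against lox, and differences in this paragraph are relative to it. Against lox the triple null had 2 genes called higher, Hamp2 (4.91, limma adjusted p = 2.95e-06) and Slc40a1 (1.19, 0.00143), where 7.72% of genes were. It had 3 called lower, Trf (-2.39, 1.07e-08), Tfrc (-1.14, 0.00819) and Cp (-1.22, 0.000302), where 5.81% were. The Tfrc call was lost without lox replicate 3, which left a difference of -0.70 before the median was taken off, or without triple null replicate 4, which left -0.86. Against Cre alfp 1 gene was called lower, Trf (-2.07, 2.94e-08), where 5.03% of genes were, and limma called 0 higher (1 at an unadjusted p under 0.05), where 5.26% were. Hamp2 differed there by 0.16 (adjusted p = 0.646). FoxA3 null against lox called 1 gene higher, Slc40a1 (1.59, 0.000723), where 3.63% were, and 0 lower (2 at an unadjusted p under 0.05), where 3.56% were. Tfrc joined it as lower without lox replicate 1 (-1.12, adjusted p = 0.0121) or with no minimum difference (-0.81, 0.0324), a setting that also called Fth1 higher (0.71, 0.00356). These 3 values are before the median was taken off. With each library scaled to a common median, the lower share of all called genes went from 42.9% to 54.9% for triple null against lox, from 48.9% to 60.4% against Cre alfp and from 49.5% to 63.7% for FoxA3 null against lox.

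Lists of genes around hepcidin were read beside all genes tested, of which 479 were called higher and 454 lower in triple null against FoxA3 null. Of 19 genes of BMP, SMAD and hemojuvelin signalling 16 were tested, and 2 were called higher and 2 lower in triple null against FoxA3 null, with a median of -0.18 against 0.05 for all genes. Hfe2, which encodes hemojuvelin, the BMP co-receptor, rose from 35.7 ± 9.72 to 77.4 ± 8.56 RPKM (n = 4 each; log2 difference 1.13, adjusted p = 0.00141). Id1, a target of the BMP signal, rose from 14.5 ± 7.16 to 30 ± 10.8 (1.06, adjusted p = 0.0367), with overlap between groups. Smad7, an inhibitor that BMP and SMAD signalling induces, fell from 4.74 ± 1.59 to 1.76 ± 0.515 (-1.03, adjusted p = 0.00564). Atoh8, another target and an activator of Hamp, fell from 12.2 ± 5.14 to 1.09 ± 0.835 (-2.65, adjusted p = 0.000176). Smad6, another inhibitory SMAD in the list, was at -0.41 and not called. In Cre alfp against lox 1 of the 16 was called, Id1, which rose from 7.14 ± 2.91 (n = 3) to 20.9 ± 7.36 (n = 4; 1.42, adjusted p = 0.0456). The effects differed by FoxA3 status for Atoh8 (-3.19, adjusted p = 0.00249), Smad7 (-1.67, 0.00696), Bmp2 (-1.15, 0.00877) and Hfe2 (1.11, 0.0317). Bmp2 and Bmp6 reach hepatocytes from sinusoidal endothelium, and markers of that endothelium were tested in the triple null against FoxA3 null: 9 of 9 tested were below 0, 3 were called, the median was -0.99, and the summed RPKM of the 10 markers was 12.4 to 24.1 against 36.6 to 58.6 in FoxA3 null. That sum was 48 to 79.6 in lox and 27.1 to 96.2 in Cre alfp. Of the 8 stellate cell and fibroblast markers 3 were tested there, and 2 were called lower, Colec11 (-1.25, adjusted p = 0.00776) and Reln (-1.15, 0.00634), with sums of 6.5 to 23.4 against 25 to 34.2. None of either list was at 0 throughout a group. Their part in these differences was not tested.

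Of 9 genes of the interleukin 6 and STAT3 route all were tested. Triple null against FoxA3 null called 0 higher (1 at an unadjusted p under 0.05) and 1 lower, with a median of -0.49. Il6ra, the interleukin 6 receptor, fell from 10.6 ± 6.04 to 4.31 ± 1.28 RPKM (log2 difference -1.02, limma adjusted p = 0.0329). In Cre alfp against lox limma called 0 of 9 (1 at an unadjusted p under 0.05), with a median of 0.21 against 0.02 for all genes.

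Of 20 genes for iron uptake, storage and export 16 were tested. Triple null against FoxA3 null called 2 higher and 0 lower (4 at an unadjusted p under 0.05), with a median of -0.07. Lcn2, the siderophore-binding protein of the acute phase, rose from 21.4 ± 12.7 to 742 ± 201 RPKM (log2 difference 5.21, limma adjusted p = 8.28e-07), and Steap4, a metal reductase, from 26.8 ± 7.74 to 74.2 ± 33.9 (1.39, adjusted p = 0.00543). The effects differed by FoxA3 status for 4 genes of the list: Lcn2 (4.47, adjusted p = 0.000433) and Steap4 (2.05, 0.0116) in the positive direction, Slc39a8, a metal importer (-1.09, 0.00946), in the other, and Scara5, a ferritin receptor. Scara5 reached 1 RPKM in the 3 lox libraries and in 0 others, so it was tested only through the group where it was high, and its calls are a description. It was at 0.233 ± 0.267 RPKM (n = 4) in FoxA3 null and 0.00808 ± 0.00505 (n = 4) in the triple null (log2 difference -0.27), while its level in lox was 3.03 ± 1.54 (n = 3). Neutrophils also make Lcn2, and their markers S100a8 and S100a9 were higher with it in the triple null, by 3.48 (adjusted p = 0.000825) and 2.69 (3.28e-05). S100a9 could be tested only through its triple null libraries. Of the 8 neutrophil and monocyte markers only 3 were tested, and the third was below 0 and not called. Ly6g was listed at 0 in every library, and the summed RPKM of the 8 was 12.2 to 116 against 3.86 to 7.68 in FoxA3 null. Their part in the Lcn2 level was not tested. Cre alfp against lox called 1 of the 16 lower, the same Scara5, at 0.0259 ± 0.0403 (n = 4), and limma called 0 higher, also at an unadjusted p under 0.05.

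Among 17 tested of 19 heme genes, triple null against FoxA3 null called 2 higher and 2 lower, with a median of -0.23. The scavengers in plasma fell: Hp, haptoglobin, which binds free hemoglobin, from 2404 ± 1069 to 398 ± 239 RPKM (log2 difference -2.70, limma adjusted p = 0.000297), and Hpx, hemopexin, which binds heme, from 2879.5 ± 685 to 584 ± 124 (-2.30, 2.41e-07). Enzymes of heme synthesis rose: Cpox from 44.9 ± 11.1 to 99.8 ± 27.4 (1.13, 0.00155) and Alad from 158 ± 20.1 to 325 ± 32.5 (1.03, 0.000835). Cre alfp against lox called 1 higher, Alad (1.36, 0.00108), and 2 lower, Hp (-1.78, 0.0373) and Hpx (-1.48, 0.000297). Of the heme genes, Cpox was the 1 called in the test of whether the effect differed by FoxA3 status (1.09, 0.0363). Alas2, the erythroid enzyme that starts heme synthesis and a marker of erythroid cells here, was 1.04 ± 0.281 in triple null libraries and 38.9 ± 5.74 in FoxA3 null (-4.29, 1.69e-08), while Hba-a1 was higher (1.79, 0.000346). Of 5 erythroid markers tested 3 were called higher, of which Hba-a2 was tested only through the triple null, and 1 lower, and the summed RPKM of all 9 was 11.2 to 31.2 against 35.8 to 50.2. In Cre alfp against lox 1 of the 5 was called in each direction: Alas2 was 14.9 ± 7.47 against 84 ± 4.96 (-2.54, 6.61e-05) and Hbb-b1 was higher (1.46, 0.0234), with sums of 18.7 to 30.9 against 82.7 to 93.3. Their part in the levels of the heme genes was not tested. Of 12 genes of mitochondrial iron all were tested and limma called 0 in either pair. At an unadjusted p under 0.05, the triple null had 6 higher and 0 lower than FoxA3 null, and Cre alfp had 1 higher than lox. Such counts say little about the list, since many genes moved. Of all 11500 genes, 3413 passed an adjusted p under 0.05 alone in the first pair and 628 in the second. The effects differed by FoxA3 status for 1 of them, Bola3, an iron-sulfur cluster assembly factor (1.00, adjusted p = 0.00539).

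**Figure D4:**
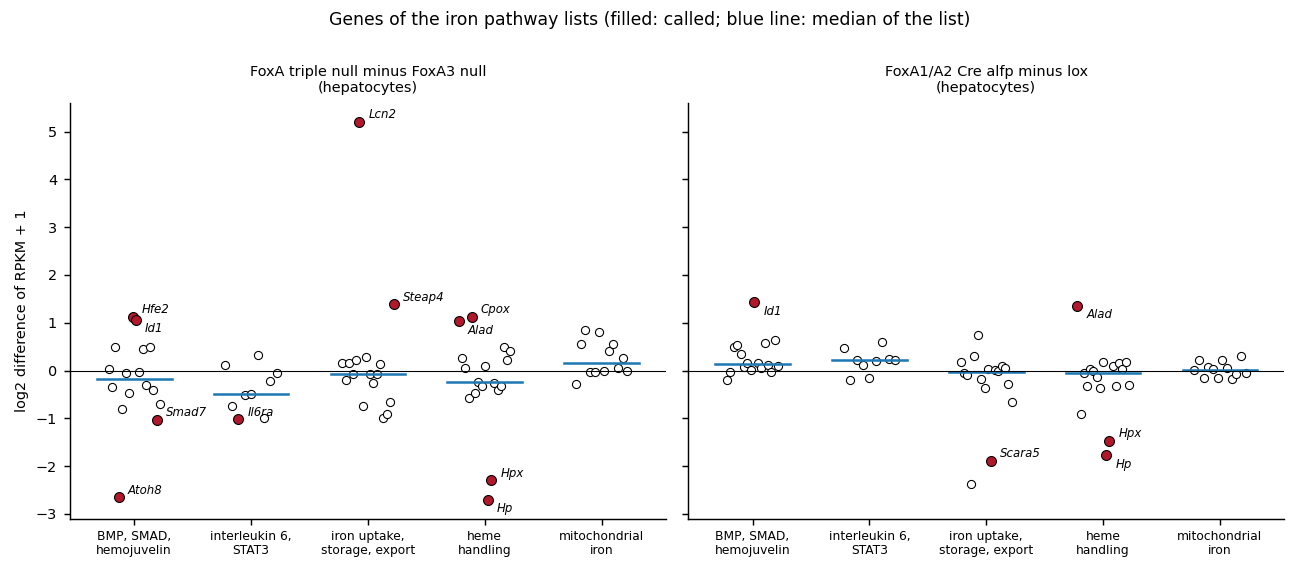
Log2 differences of RPKM + 1 (vertical axis) for the tested genes of 5 iron lists (horizontal axis), in triple null against FoxA3 null on the left and Cre alfp against lox on the right. Filled, named points were called and blue lines are medians of the lists. Lcn2 stands at 5.21 on the left, and the medians lie between -0.49 and 0.21.

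In liver the libraries labelled HNF4a null had lower Trf and Tfr2 and higher Tfrc and Cp than the controls. The median of all 12434 genes tested was 0.34, so differences are given relative to it. Trf read 1491, 1542, 1518 and 1839 RPKM in the 4 libraries carrying the null label, lettered A to D, against 4893 and 4968 in the controls (-1.97, limma adjusted p = 0.000195). Tfr2 read 19.9, 29.2, 19 and 23.7 against 73.5 and 69.7 (-1.95, adjusted p = 0.000543). Tfrc read 33.9, 37.5, 29.9 and 24 against 10.7 and 12.6 (1.00, adjusted p = 0.00133), and Cp read 636, 838, 630.3 and 796 against 301 and 264 (1.01, adjusted p = 0.000773). Each of these 4 was called on the differences as deposited. None of them overlapped between groups, but neither did Hfe and Fth1, which were not called. The share of all genes without overlap was not computed, so the lack of overlap only describes these genes. The counts were 2 of 9 called higher, where 8.58% of genes were, and 2 lower, where 5.95% were. Scaling each library to a common median moved the lower share of all called genes from 41% to 65.8%, and the same number of iron genes, 4, was called.

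Hamp did not differ detectably in liver. Libraries A to D labelled HNF4a null read 769, 825, 493 and 597 RPKM, and the controls 508 and 743 (0.10 as deposited and -0.24 relative to the median, limma adjusted p = 0.762). Hamp2 read 255, 117, 198 and 251 against 74.2 and 129, which overlapped (0.66, adjusted p = 0.0543), and it was called only without library B labelled HNF4a null (1.24 before the median was taken off, adjusted p = 0.0108). Hfe (0.02), Fth1 (0.03) and Slc40a1 (-0.35) were not called. Slc40a1 was 36.3 ± 1.89 (n = 4) and 36.6 ± 2.19 (n = 2). Of the lists, Id1 was the only gene called of 18 tested for BMP, SMAD and hemojuvelin signalling, higher at 23.2 ± 6.94 against 3.02 ± 0.795 (2.22, adjusted p = 0.000405). Of the 9 interleukin 6 and STAT3 genes Cebpa, a liver transcription factor, was the 1 called, lower at 19.5 ± 1.5 against 54.3 ± 2.67 (-1.77, 9.57e-05). Of 15 genes tested for iron uptake, storage and export 1 was called in each direction, Lcn2 higher (2.49, 0.0168) and Steap2 lower (-2.15, 0.00018), which was tested only through the controls. Of 19 heme genes 4 were called higher and 2 lower on the differences as deposited. Hp was higher at 3370.0 ± 1062 against 1560.5 ± 182 (1.07 as deposited, 0.73 relative to the median, 0.016), and Lrp1, Slc48a1 and Alad were higher with it (0.99, 0.84 and 0.74 relative to the median). Hpx was lower at 642 ± 60.5 against 1736 ± 169.7 (-1.77, 0.000279), as was Slc46a1 (-1.54, 0.00563). Of the mitochondrial iron genes Hscb was called higher (0.78 relative to the median, 0.0162) and Glrx5 lower (-1.42, 0.000657). Markers of other cells moved with these. Of 4 neutrophil and monocyte markers tested S100a8 and S100a9 were called higher (1.33, 0.0206 and 1.14, 0.0391), both tested only through the libraries labelled HNF4a null, with sums of 36.5 to 61.2 RPKM against 28.5 to 28.6. Of 10 Kupffer cell markers Marco was called higher (1.48, 0.00223), with sums of 176 to 218 against 139 to 149. Limma called 0 of 10 endothelial and 0 of 8 stellate markers (3 and 5 higher at an unadjusted p under 0.05), with sums of 228 to 243 against 175 to 197 and of 132 to 151 against 106 to 119. Of all 12434 genes tested in liver, 6569 passed an adjusted p under 0.05 alone, so these unadjusted counts say little about the markers. Of 6 erythroid markers tested Alas2 was called lower, at 8.45 ± 2.19 against 66.8 ± 15.1 (-3.19, 0.000195), with sums of 202 to 609.7 against 311 to 347. Of 8 cholangiocyte markers 2 reached 1 RPKM in any control library and 7 in those labelled HNF4a null, and the sum of the 8 was 132 to 230.3 against 16.7 to 17. Spp1 (3.02, 0.000112) and Pkhd1 (1.34, 0.000169) were called higher, and 3 more called markers, Prom1, Sox9 and Epcam, were tested only through the null label, so their calls are fixed in part by that minimum. The part of these cells was not tested. Hepatocyte markers summed to 12470.5 to 13716 RPKM against 22948 to 23692 in the controls, and to at least 29014 in every hepatocyte library. Alb alone was 6484 ± 643 (n = 4) against 16299 ± 122 (n = 2). The 10 markers did not move together: on the differences as deposited 5 were above 0 and 5 below. Of them 1 was called higher, Cps1 (0.69 relative to the median, limma adjusted p = 0.00252), and 4 lower, Asgr1, Apob, Alb and Tat.

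Among the 11499 other genes tested over the 15 hepatocyte libraries, those whose log2(RPKM + 1) followed Hamp most closely were Sssca1 (Pearson r = 0.87), Fam50a (0.86), Fos (0.86), Gm14277 (0.85) and 1110004E09Rik (0.85). These libraries are few and share their group differences, so the values only describe them.

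The order of levels among the 9 genes differed by group. By mean RPKM, which is per gene length, Trf led in every group but the triple null, where Hamp and Hamp2 came first, then Fth1 and then Trf. This order of means did not hold in each library. In triple null replicate 3 Hamp read 792, below Trf at 1404, Hamp2 at 1889 and Fth1 at 2565. In lox replicate 3 Hamp read 8785, above Trf at 7102. Hamp2 ranked 2 in the triple null, 3 in Cre alfp, 5 in both liver groups and 6 in FoxA3 null and lox. Tfrc was last in every group except the livers labelled HNF4a null, where Tfr2 was.

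The authors' deposited tables cover the triple null against 3 other adult groups and against hepatoblasts, 2 developmental stages against adult hepatocytes, and liver labelled HNF4a null against its control. Tfr2 was not read from them. For triple null against FoxA3 null the authors' deposited table has log2 values of 5.17 for Hamp2, -1.90 for Trf, -1.13 for Cp, -0.60 for Hfe and 1.04 for Hamp, with adjusted p of 7.43e-21, 6.22e-14, 6.27e-23, 0.000321 and 0.231. The authors' deposited table against Cre alfp has -2.88 for Trf and -0.94 for Cp, where limma here gave -1.94 and -0.54. The authors' deposited table against undeleted controls has 4.91 for Hamp2, -3.25 for Trf, -1.46 for Cp and -0.47 for Hfe. Limma here gave 5.05, -2.26, -1.09 and -0.09 for these against lox. These limma values are before the median was taken off. For liver labelled HNF4a null against control the authors' deposited table has -2.06 for Trf, 0.81 for Tfrc, 0.98 for Cp and -0.42 for Slc40a1, with adjusted p of 2.43e-74, 1.2e-11, 6.52e-10 and 1.64e-05, and 1.73 for Hnf4a. For hepatoblasts, the fetal precursors, against adult hepatocytes the authors' deposited table lists Hamp at -5.96, Hamp2 at -2.16, Trf at -7.10, Hfe at -7.07, Cp at -6.63 and Slc40a1 at -4.19. For newborn against adult the authors' deposited table lists Hamp at -7.71 and Hamp2 at -6.31, and it lists Tfrc at 2.65, Slc40a1 at 1.73 and Trf at 1.19. For triple null against hepatoblast the authors' deposited table gives 7.07 for Hamp2, 5.22 for Hamp and 3.85 for Trf. The libraries behind the adult reference of these tables are not given in the sources used here.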

How the data were processed

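The expression values are RPKM that the authors deposited as 1 matrix, of which 21 columns matched a sample or group and 9 others were not used. Per the submitters' processing notes SAMtools, Cufflinks 2.2.1, DESeq2 and mm9 were used, with no roles given, and per the labels' protocols libraries were made with an Ultra RNA kit. Aligner, counting method and annotation are not given in the sources used here. In 7 tables of comparisons the authors deposited log2 fold changes with p-values; the Cre alfp table's p-values, deposited unadjusted, were adjusted by the Benjamini-Hochberg method, and the sign of the table against undeleted controls was turned. No counts were used and absolute depth is unknown; relative depth came from the steps between low RPKM values.

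Genes with at least 1 RPKM in at least 3 of 15 hepatocyte libraries, or 2 of 6 liver libraries, were fitted by limma 3.58.1 in R 4.3.3 (eBayes with trend) on log2(RPKM + 1), with a pseudocount of 1. Hepatocyte groups shared 1 fit and liver had its own. Because values below a few RPKM are drawn in by the pseudocount, log2 differences of low genes are understated. Genes were called at adjusted p under 0.05 over all genes and an absolute log2 difference of at least 1, in 7 comparisons. The fit was tested on simulated data. The alternatives were a pseudocount of 0.1, no minimum or 5 RPKM as minimum, no minimum difference, median scaling, quantile normalization, no trend, compared groups only, a replicate block and leaving out each library. Named genes were the 9 members, the targeted genes, up to 4 called genes of each list with the largest difference, and the 5 genes most like Hamp. The members and lists were chosen with earlier results of these data known. Promoters were aligned with Biopython 1.88. The HNF4a columns carry no replicate number and are lettered. The chromatin files, whose coordinates could not be joined to the reference used here, were not used here.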

Additional observations from a re-analysis of the deposited data

Results flagged for a closer look

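Trf in the livers labelled HNF4a null had a library apart from its group: library D read 1839 RPKM and the other 3 lay between 1491 and 1542, a gap of 0.851 of the group's range. It was the 1 such library among 36 sets of 4 values examined, where chance alone marks about 1 in 20.

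The effect of deleting FoxA1 and FoxA2 differed between mice with and without FoxA3 for 3 genes by limma's test of the difference itself. Trf differed by -2.02 (adjusted p = 5.75e-06), Slc40a1 by -1.50 (adjusted p = 0.0147) and Tfr2 by -0.77 (adjusted p = 0.00692), the last under the minimum size for a call. With a block on replicate numbers, which did not pair the libraries, the Slc40a1 call was lost (-1.48, adjusted p = 0.103). The 2 pairs of groups were also deleted by different Cre constructs, so FoxA3 status and the way of deletion cannot be told apart.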

How the results depend on the processing

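Over all comparisons, 1003 of 1062 refitted differences of the 9 genes kept direction and side of the call, 19 lost the call, 15 gained it and 25 changed sign. Every comparison that called Hamp2 or Trf also called it under each alternative run.

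With no minimum difference the members called became 5 for triple null against FoxA3 null, 4 against Cre alfp and 3 for FoxA3 null against lox, and the genes called became 3413, 4743 and 4001, with 628 for Cre alfp against lox, 1658 for the difference between effects, 4891 for triple null against lox and 6569 in liver. A pseudocount of 0.1 called 1303 genes for FoxA3 null against lox. For Cre alfp against lox no minimum on RPKM left 1 member called, and a fit on the compared groups only called 182 genes. With the replicate block Cre alfp against lox called 1 member and 122 genes, FoxA3 null against lox 0 members and 142 genes, and the difference between effects 1 member. Slc40a1 lost its call in each of these (limma adjusted p = 0.185, 0.0841 and 0.103). Tfrc lost its call in Cre alfp against lox (0.191) and in triple null against lox (0.0645). Replicate numbers did not pair the libraries: correlations of same-numbered deviations ran from -0.36 to 0.17, not every pair exceeded 0.1, and libraries did not all match their own number best.

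Leaving out 1 library gave 1 to 3 members and 177 to 284 genes for Cre alfp against lox, where 177 came without lox replicate 1, and 1 to 2 members for FoxA3 null against lox.

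Sign changes concerned small differences that were not called. Median scaling gave 0.00 for Tfr2 in Cre alfp against lox, -0.04 for Tfrc in triple null against Cre alfp, -0.02 for Trf in FoxA3 null against lox and -0.17 for Hamp in liver. Quantile normalization gave 0.08 for Fth1 in triple null against FoxA3 null and 0.02 for Cp in FoxA3 null against lox. The replicate block gave 0.13 for Hamp2 in FoxA3 null against lox. Leaving out 1 library at a time gave ranges that crossed 0. For Cre alfp against lox these were Tfr2 -0.08 to 0.12. For the difference between effects these were Fth1 -0.20 to 0.05. For FoxA3 null against lox these were Hamp2 -0.67 to 0.13, Trf -0.02 to 0.19, Cp -0.13 to 0.12. For triple null against FoxA3 null these were Fth1 -0.15 to 0.11. For triple null against Cre alfp these were Hamp -0.79 to 0.29, Hamp2 -0.06 to 0.51, Tfrc -0.04 to 0.22. In liver these were Hamp -0.18 to 0.37, Slc40a1 -0.07 to 0.05. The cause was not tested. The liver libraries were the shallowest and the lox group has 3 libraries, which limits those comparisons.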
